A study of Mus musculus with 12 samples.

Results

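Monocyte and macrophage marker genes were followed in cultured mouse bone marrow progenitors that carried a leukaemia fusion and a knockdown of its partner protein Nizp1. The set comprises Lyz1, Lyz2, Csf1r, Ccr2, Cd68, Adgre1, Mpeg1, Cd14, Itgam and Fcgr1. They were taken by gene symbol as markers of these cells, and all 10 were among the 55376 genes of the count table. All 10 also passed the filter on low counts, which left 11994 genes tested.

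The cells were progenitors from mouse bone marrow, labelled c-Kit+/Sca-1+/Lin-, a fraction rich in stem and early progenitor cells, kept in the cytokines IL-3 (20 ng/ml), SCF (100 ng/ml) and IL-6 (20 ng/ml). A retroviral vector (MSCV), selected with geneticin, carried NUP98-NSD1, which joins part of a nuclear pore protein to a histone methyltransferase, or was empty. A second vector (pLKO.1) carried an shRNA. The groups had 3 libraries each: NUP98-NSD1 with shNizp1#2, NUP98-NSD1 with shNizp1#1, NUP98-NSD1 with the control shRNA (sh#ctrl), and empty MSCV with the control shRNA. All 12 libraries thus came from cells that had received a retroviral and an shRNA vector, and a knockdown in cells without the fusion was not among them. The knockdown was constitutive, and the values are averages over all cells of a culture. The labels number the replicates 1 to 3 in each group, and the series speaks of independent experiments without saying that a number marks one.

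Monocytes and macrophages arise from the same myeloid progenitors as granulocytes, under the control of the transcription factor PU.1 and of the growth factor receptor encoded by Csf1r. Their marker genes fall into functional groups. Lyz2 and Lyz1 encode lysozymes that cut bacterial walls, and Cd68 and Mpeg1 encode proteins of the lysosome and phagosome. Csf1r and Ccr2 encode receptors for growth and migration, Adgre1 and Itgam surface receptors of adhesion, and Cd14 and Fcgr1 receptors for bacterial lipopolysaccharide and for immunoglobulin G. Several are shared: Itgam and Lyz2 are also used by neutrophils and Fcgr1 is induced by interferon.

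Sequences are shown where they bear on reading the values. The genes Lyz1 and Lyz2 lie side by side on the minus strand of chromosome 10 and are close copies. The 70 bases from 120 to 51 bases upstream of their RefSeq starts (GRCm38.p6, minus strand) differed at 9 positions, which are in capitals, so that 87.1% were identical; the 50 bases between them and the start did not differ, which made 92.5% over the 120 bases. These stretches are shown because the RNA of these copies differed widely in every library. For Lyz2 the gene as counted reaches to 117282321, so most of the 50 bases next to the RefSeq start lie within it.
Lyz2, chr10:117282323-117282392: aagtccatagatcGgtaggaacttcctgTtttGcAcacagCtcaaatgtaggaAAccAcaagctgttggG
Lyz1, chr10:117292919-117292988: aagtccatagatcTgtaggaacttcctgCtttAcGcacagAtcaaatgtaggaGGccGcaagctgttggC

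Itgam and Fcgr1 are shown because they held, within 120 bases upstream of the RefSeq start, a core often bound by PU.1 (GAGGAA, searched on both strands, TTCCTC on the other) or the outline of a STAT site (TTCNNNGAA, with N for any base). Matches are in capitals and do not overlap each other.
Itgam, plus strand, chr7:128062520-128062639: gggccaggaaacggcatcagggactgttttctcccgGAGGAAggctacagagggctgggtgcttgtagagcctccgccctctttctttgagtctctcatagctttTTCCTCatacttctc
Fcgr1, minus strand, chr3:96293970-96294089: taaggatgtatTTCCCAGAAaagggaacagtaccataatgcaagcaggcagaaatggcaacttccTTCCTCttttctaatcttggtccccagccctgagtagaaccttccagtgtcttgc

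Of the 10 genes, 7 had a RefSeq promoter entry, and Csf1r, Adgre1 and Cd14 did not. GAGGAA was found in 2 of the 7 windows, with 2 matches in Itgam and 1 in Fcgr1, and in 11.6% of 27025 promoters of the same length. TTCNNNGAA was in 1 of the 7 windows, that of Fcgr1, and in 3.20% of all. TGANTCA, an AP-1 word, was in 1 of the 7, that of Cd68, and in 3.40% of all. A match describes the letters and not a bound site. The windows follow the RefSeq starts. That of Ccr2 lies within the gene as counted (124101950 to 124113557), as does part of that of Lyz2.

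Depth was 3586538 to 6842589 counts per library. CPM is the count per 1000000, for a library size taken over tested genes and multiplied by its TMM factor, and 3 counts in a library stood for 0.417 to 0.837 CPM. Intervals and floors describe the error of counting alone. The targeted gene was checked first: Zkscan17, the symbol of Nizp1, was at 17.6 to 29.0 CPM with shNizp1#2 and 26.2 to 34.97 CPM with shNizp1#1, against 49.4 to 62.6 CPM with the fusion and control shRNA. Nsd1 was at 699 to 788 CPM with the fusion and control shRNA, against 139 to 230.3 CPM with the empty vector, and its reads can come from the construct. Beside the label of progenitors, 16 mast cell genes summed to 47386 to 76227 CPM in every library, while 10 stem and progenitor genes summed to 3943 to 4966 CPM and 10 lymphoid genes to 4.13 to 9.51 CPM. The 10 monocyte and macrophage markers summed to 97.3 to 4043 CPM.

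Lyz2, the lysozyme of monocytes, macrophages and neutrophils (chromosome 10, 117277331 to 117282321), was by far the most abundant marker. In replicates 1, 2 and 3 it was at 743, 2658 and 407 CPM with shNizp1#2 and at 596, 2740.4 and 986 CPM with shNizp1#1. It was at 849, 1900.2 and 100.1 CPM with the fusion and control shRNA, against 1250.2, 1539 and 32.4 CPM with the empty vector. All 4 groups overlapped: replicate 2 was highest in each, and the lowest libraries were those of replicate 3 that carried the control shRNA. Lyz1, the lysozyme known from Paneth cells of the intestine (117287797 to 117292868), was nearly silent, with 1, 12 and 4 counts with shNizp1#2 and 2, 8 and 2 with shNizp1#1. It had 10, 17 and 2 counts with the fusion and control shRNA, against 8, 5 and 0 with the empty vector. Lyz1 and Lyz2 transcripts of GENCODE vM21 were 96.0% identical over their aligned bases, and 74 of the 1189 windows of 75 bases in Lyz1, the read length, occurred unchanged in Lyz2. Lyz1 had at most 3.92 counts per 1000 of Lyz2, and reads of the shared windows may not have been told apart, so its values are uncertain.

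Cd68, a glycoprotein of lysosomal membranes (chromosome 11, 69664213 to 69666153), was at 33.6, 153 and 17.0 CPM with shNizp1#2 and 26.9, 107 and 34.6 CPM with shNizp1#1 in replicates 1, 2 and 3. It was at 37.0, 108 and 5.69 CPM with the fusion and control shRNA, against 53.7, 64.2 and 8.47 CPM with the empty vector. Mpeg1, a pore-forming protein that attacks bacteria in the phagosome (chromosome 19, 12460779 to 12465283), is made by macrophages. Its values were 95.9, 366 and 32.3 CPM with shNizp1#2 and 70.4, 268 and 68.3 CPM with shNizp1#1. They were 63.9, 411 and 9.22 CPM with the fusion and control shRNA, against 95.1, 198 and 3.47 CPM with the empty vector. For both genes the libraries of replicate 2 lay above every other library, and the groups overlapped.

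Csf1r, the receptor for the growth factor CSF1 (chromosome 18, 61105572 to 61132149), was at 52.5, 235 and 16.1 CPM with shNizp1#2 and 48.8, 153 and 33.6 CPM with shNizp1#1 in replicates 1, 2 and 3. It was at 46.0, 169 and 5.30 CPM with the fusion and control shRNA, against 61.9, 97.3 and 1.95 CPM with the empty vector. In replicate 1 the groups lay close together, and in replicate 3 they were spread widely. Csf1r overlaps Mir6983 and, on the other strand, Hmgxb3, which together held 2905 counts against 4847 of Csf1r. Since the strand setting of the counting is not given in the sources used here, reads of these genes may not have been told apart. Ccr2, the chemokine receptor that lets monocytes leave the marrow (chromosome 9, 124101950 to 124113557), was at 74.2, 299 and 24.9 CPM with shNizp1#2 and 84.7, 241 and 47.8 CPM with shNizp1#1. It was at 68.3, 279 and 100.5 CPM with the fusion and control shRNA, against 88.8, 157 and 44.3 CPM with the empty vector. Unlike Csf1r, its highest library of replicate 3 was the one with the fusion and control shRNA.

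Adgre1, an adhesion receptor that marks tissue macrophages (chromosome 17, 57358691 to 57483527), was at 35.2, 94.8 and 22.3 CPM with shNizp1#2 and 14.3, 53.6 and 13.9 CPM with shNizp1#1. It was at 34.8, 79.4 and 24.7 CPM with the fusion and control shRNA, against 26.6, 55.5 and 2.82 CPM with the empty vector. Within each replicate number the library with shNizp1#1 was lower than both other fusion libraries. Itgam, the integrin subunit CD11b (chromosome 7, 128062640 to 128118491), was at 24.0, 107 and 4.70 CPM with shNizp1#2 and 20.5, 70.1 and 8.05 CPM with shNizp1#1. It was at 24.97, 85.0 and 1.77 CPM with the fusion and control shRNA, against 28.1, 46.0 and 0.217 CPM with the empty vector, the last being 1 count. No marker apart from Lyz1 came nearer to absence in any library.

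Cd14, the co-receptor that hands lipopolysaccharide to the Toll-like receptor TLR4 (chromosome 18, 36725067 to 36726798), was at 32.1, 85.0 and 5.43 CPM with shNizp1#2 and 37.8, 46.3 and 5.42 CPM with shNizp1#1. It was at 28.9, 76.8 and 3.53 CPM with the fusion and control shRNA, against 36.2, 40.8 and 2.39 CPM with the empty vector. Its 3 replicate numbers did not overlap, while the groups did. Fcgr1, the high-affinity receptor for immunoglobulin G (chromosome 3, 96282909 to 96293969), was at 19.4, 44.2 and 9.10 CPM with shNizp1#2 and 14.8, 36.8 and 6.67 CPM with shNizp1#1. It was at 8.54, 87.2 and 2.75 CPM with the fusion and control shRNA, against 10.2, 28.1 and 1.30 CPM with the empty vector. Its highest library, replicate 2 with the fusion and control shRNA, was also the one in which 24 interferon-stimulated genes summed highest, at 3288 CPM against 287 to 1293 CPM in the other libraries; the part of interferon in this value was not tested.

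**Figure D1:**
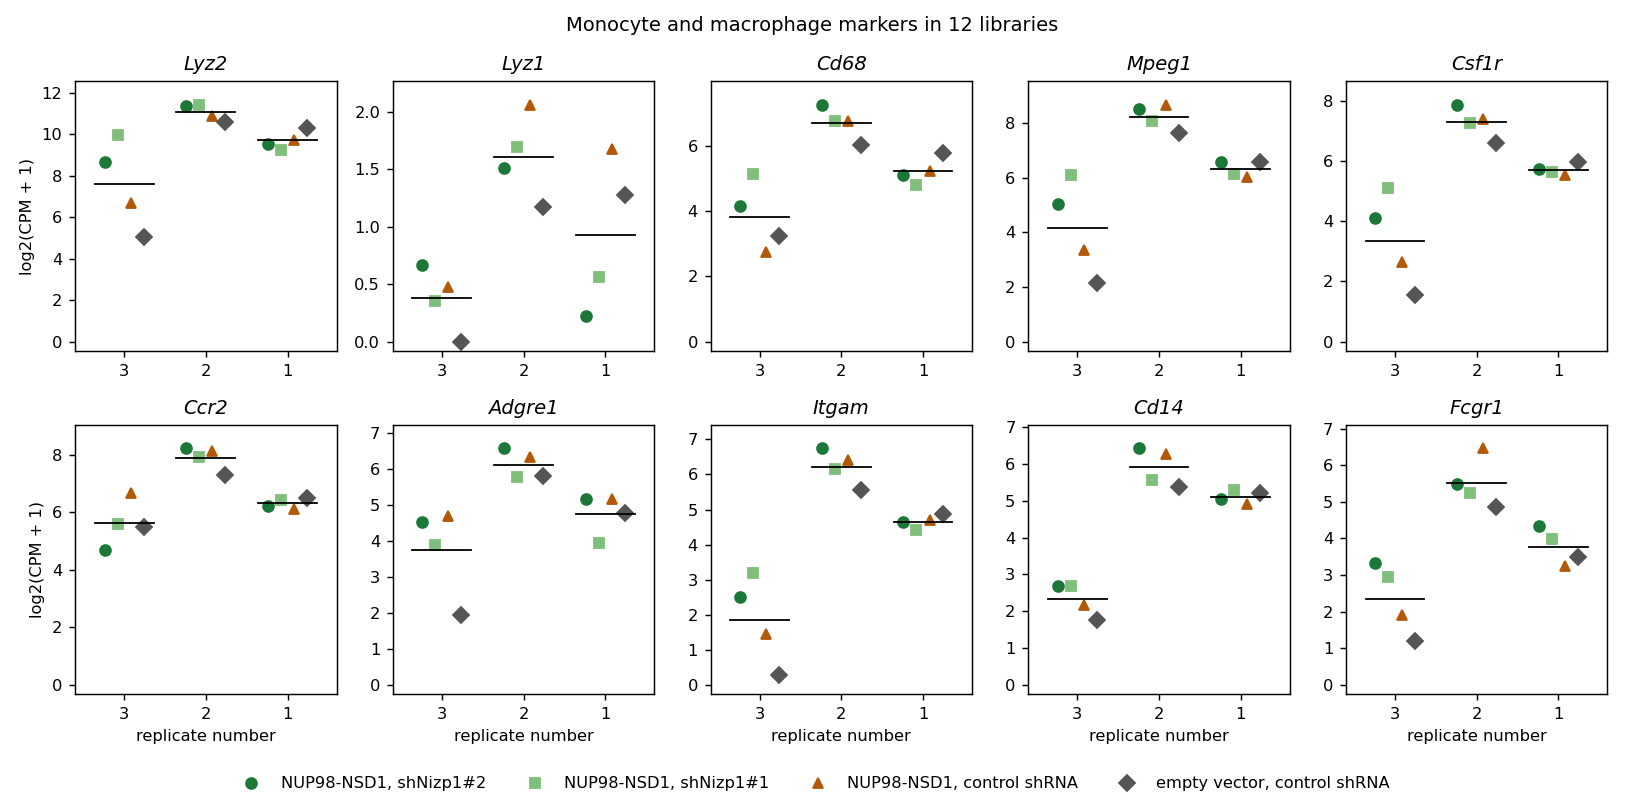
Expression of the 10 markers in the 12 libraries, as log2(CPM + 1) against replicate number, with 1 point per library, coloured by group, and a line at the mean of the 4 libraries of a number. The libraries of replicate number 2 lay above those of number 3 for all 10 genes, while the 4 groups were mixed.

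Levels can be compared between genes per length. In CPM per kilobase of exon, Lyz2 averaged 874 over the 12 libraries, Cd68 43.0, Mpeg1 32.3, Cd14 20.4, Ccr2 18.6 and Csf1r 15.7. Adgre1 averaged 11.8, Fcgr1 8.66, Itgam 7.10 and Lyz1 0.924. Lyz2 was the highest and Lyz1 the lowest of the 10 in 12 of 12 libraries. Between neighbours in this order, Cd68 lay above Mpeg1 and Ccr2 above Csf1r in 11 libraries, and Adgre1 above Fcgr1 in 10. Mpeg1 and Cd14, Cd14 and Ccr2, and Csf1r and Adgre1 were each in that order in 7 of the 12 libraries, so their levels were not apart beyond the spread. Fcgr1 lay above Itgam in 9 of 12.

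The first comparison asked whether the fusion changes these genes. None of the 10 was called with NUP98-NSD1 against the empty vector by the quasi-likelihood test of edgeR with Benjamini-Hochberg adjustment over all genes, a call being an adjusted p under 0.05. The share of all tested genes called was 0.00834%. None had an unadjusted p under 0.05, and DESeq2 and limma-voom called 0 as well. All 10 log2 fold changes lay above 0, with a median of 0.61 beside 0.01 over all tested genes. Single libraries moved this median in a fit that had no term for the replicate number. Leaving 1 library out also left the numbers unequal between the groups, so the medians that follow hold differences between numbers too. Without replicate 2 of the fusion and control shRNA, 2 of the 10 lay above 0 and the median was -0.94. The median was 1.01 without replicate 3 of the same group, and 1.29 and 0.075 without empty-vector replicates 2 and 3. Their SEs were as large as the changes: Fcgr1 was at 32.8 ± 47.2 against 13.2 ± 13.6 CPM (SD, n = 3 each; log2 fold change 1.33, SE 1.29, adjusted p = 1.00 in edgeR) and Mpeg1 at 161 ± 218 against 98.9 ± 97.3 CPM (0.71, SE 1.45).

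Same-numbered libraries deviated together across the whole table (all 18 pairs had a correlation above 0.1), so the fit was repeated with the replicate number as a block. It called 0.275% of tested genes for the fusion and again 0 of the 10, with 8 above 0 and a median of 0.37. Leaving out 1 library moved this median to between -0.09 (without replicate 2 of the fusion and control shRNA) and 1.05 (without empty-vector replicate 1). Adgre1 came nearest to a call, at 46.3 ± 29.1 CPM with the fusion against 28.3 ± 26.4 CPM with the empty vector (0.88, SE 0.42, adjusted p = 0.491, edgeR with the block). It was higher in 3 of 3 replicate numbers, by log2 ratios of 0.39, 0.52 and 3.13 in numbers 1, 2 and 3. Lyz1, with few counts, was also higher in 3 of 3. With the fusion, 2 of the 10 markers, Adgre1 and Lyz1, were higher in number 1, 10 in number 2 and 9 in number 3, against 49.6%, 50.2% and 50.4% of all tested genes. In number 3, Lyz2, Csf1r, Mpeg1 and Ccr2 had log2 ratios of 1.63, 1.44, 1.41 and 1.18, and Cd68 one of -0.57.

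With shNizp1#1 in fusion cells, 0 of the 10 markers were called against the control shRNA, where 0% of tested genes were called without the block and 1.63% with it. None had an unadjusted p under 0.05 in either fit, and DESeq2 and limma-voom called 0 in the unblocked fit. With the block 5 of the 10 lay above 0, with a median log2 fold change of 0.04, which leaving out 1 library moved to between -0.23 (without shNizp1#1 replicate 3) and 0.65 (without control shRNA replicate 2). Lyz2 had the largest change, 1441 ± 1142 CPM against 949.8 ± 904 CPM (SD, n = 3 each; log2 fold change 1.35, SE 1.07, adjusted p = 0.703, edgeR with the block). Adgre1 was lower in 3 of 3 replicate numbers, at 27.2 ± 22.8 against 46.3 ± 29.1 CPM (-0.84, SE 0.42, adjusted p = 0.493).

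In replicate number 3, shNizp1#1 against the control shRNA gave log2 ratios of 3.30 for Lyz2, 2.89 for Mpeg1, 2.67 for Csf1r, 2.603 for Cd68 and 2.19 for Itgam. Fcgr1 was at 1.28 and Cd14 at 0.62, while Ccr2 and Adgre1 were at -1.07 and -0.83. In number 1, 5 of 10 markers were higher, and in number 2 only 1, Lyz2, beside 49.7% and 47.0% of all tested genes. There the ratios of Lyz2 were -0.51 and 0.53, those of Csf1r 0.08 and -0.14, those of Adgre1 -1.29 and -0.57 and those of Fcgr1 0.79 and -1.24. Each of these ratios compares 1 library with 1 other, so the difference between replicate numbers was not tested.

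With shNizp1#2 against the control shRNA, 0 of the 10 were called, where 0.00834% of tested genes were called without the block and 0.217% with it. No marker had an unadjusted p under 0.05 in either edgeR fit, and DESeq2 and limma-voom called 0 too. The blocked median was 0.25, with 8 of 10 above 0, and lay between 0.07 (without shNizp1#2 replicate 2) and 0.69 (without control shRNA replicate 2) when 1 library was left out. Csf1r was at 101 ± 117 CPM against 73.5 ± 85.4 CPM (0.53, SE 0.63, adjusted p = 0.815, edgeR with the block), and it was higher in 3 of 3 replicate numbers, as was Cd14 (0.21, SE 0.28, adjusted p = 0.831). In replicate number 3, log2 ratios were 2.02 for Lyz2, 1.81 for Mpeg1, 1.61 for Csf1r and 1.58 for Cd68, against -2.01 for Ccr2 and -0.15 for Adgre1. Both shRNAs were set against the same control libraries, so these ratios share their denominator. In that library of replicate number 3, Lyz2 had 510 counts, Ccr2 512 and Adgre1 126. Counts there were low for Mpeg1 (47), Cd68 (29), Csf1r (27), Cd14 (18), Fcgr1 (14) and Itgam (9), so their ratios are less certain.

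Between the shRNAs, shNizp1#2 against shNizp1#1, 0 of the 10 were called, where 0.00834% of tested genes were called without the block and 2.37% with it. None had an unadjusted p under 0.05 in either edgeR fit, and DESeq2 and limma-voom called 0. Adgre1 and Fcgr1 were higher with shNizp1#2 in 3 of 3 replicate numbers. Adgre1 averaged 50.8 ± 38.6 against 27.2 ± 22.8 CPM (0.89, SE 0.41, adjusted p = 0.376, edgeR with the block) and Fcgr1 24.2 ± 18.05 against 19.4 ± 15.6 CPM (0.37, SE 0.53, adjusted p = 0.825). The values of all 10 genes overlapped between the groups in each of these 4 comparisons. The share of all tested genes that overlapped is not given here, so this does not set the markers apart from other genes. With the block and no filter on low counts, 2 markers were called between the shRNAs, where 2.64% of all genes were, 6 with shNizp1#1 (2.16%), 4 with shNizp1#2 (1.56%) and 3 with the fusion (1.9%). In that unfiltered fit the SE of Lyz2 did not use its own spread between libraries.

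**Figure D2:**
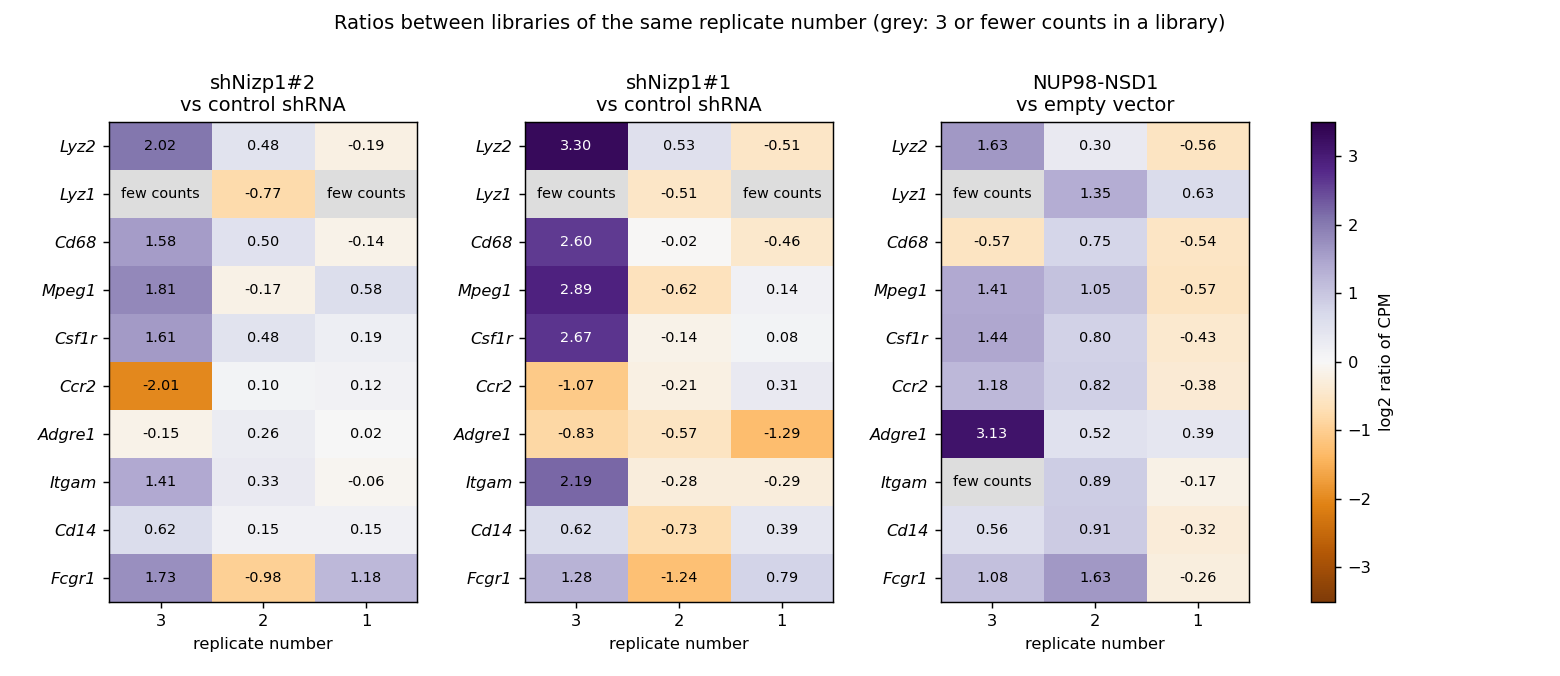
Log2 ratio of CPM between libraries of the same replicate number for shNizp1#2 and shNizp1#1 against the control shRNA and for NUP98-NSD1 against the empty vector, with grey where a library had 3 or fewer counts. In replicate number 3 both shRNA columns are between 1.41 and 3.30 for Lyz2, Cd68, Mpeg1, Csf1r and Itgam, while Ccr2 is at -2.01 and -1.07. The control shRNA library of that number had 9 to 47 counts of Cd68, Mpeg1, Csf1r and Itgam.

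The replicate number separated the markers far more than the vectors did. Of the 10 genes, 9 differed between replicate numbers (edgeR, model of group and replicate number, adjusted p under 0.05), as did 53.5% of all tested genes; Lyz2 was the exception (adjusted p = 0.0822). In a split of the sum of squares of log2(CPM + 1), the replicate number held between 60.9% (Lyz1) and 95.04% (Cd14) of a marker's spread, with a median of 78.6%, and the group 1.86% to 20.2%, with a median of 8.31%. Over all tested genes the medians were 48.7% for replicate number and 20.6% for group. The group share was largest for Adgre1, at 20.2%, and smallest for Cd14.

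**Figure D3:**
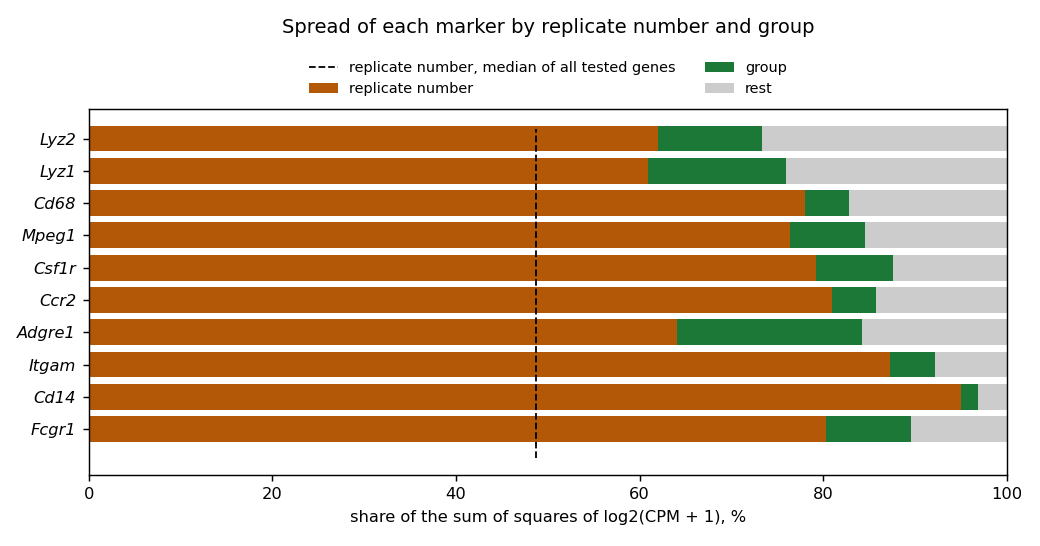
Share of each marker's sum of squares of log2(CPM + 1) over 12 libraries that falls to the replicate number, to the group and to the rest, in percent. The replicate number took between 60.9% and 95.04%, above the median of all tested genes at 48.7% (dashed line).

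Replicate number 3 against number 2 had the widest gap. All 10 markers were lower in number 3, where 25.4% of all tested genes were called lower, and the median log2 fold change was -3.12 beside 0.02 over all genes. Itgam averaged 3.68 ± 3.46 CPM in number 3 against 76.9 ± 25.4 CPM in number 2 (SD, n = 4 each; -4.27, SE 0.52, adjusted p = 5.97e-04 in edgeR). Cd14 averaged 4.19 ± 1.496 against 62.2 ± 21.9 CPM (-3.84, SE 0.28, adjusted p = 3.96e-06). Mpeg1, Csf1r and Fcgr1 had log2 fold changes of -3.598, -3.56 and -3.26, with Mpeg1 at 28.3 ± 29.4 against 311 ± 95.9 CPM. The smallest changes were those of Adgre1 (-2.19, 15.9 ± 9.90 against 70.8 ± 19.8 CPM) and Ccr2 (-2.25, 54.4 ± 32.3 against 244 ± 62.4 CPM). All 4 libraries of number 3 were below all 4 of number 2 for each of the 10 genes, which held for 19.8% of all tested genes. Lyz2, with adjusted p = 0.0409 in edgeR, stood nearest to the threshold, at 381 ± 435 against 2209 ± 585 CPM.

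Number 3 against number 1 gave fewer calls. Cd14 (4.19 ± 1.496 against 33.8 ± 4.03 CPM; log2 fold change -2.99, SE 0.29, adjusted p = 6.84e-05, edgeR) and Itgam (3.68 ± 3.46 against 24.4 ± 3.13 CPM; -2.68, SE 0.55, adjusted p = 0.0133) were lower, 2 of 10 where 15.9% of tested genes were lower. Csf1r did not pass (-1.99, SE 0.62, adjusted p = 0.0606), although its libraries did not overlap; no overlap was found for Csf1r, Cd14 and Itgam, and for 13.8% of tested genes. Ccr2 had the smallest difference (-0.65, SE 0.40, adjusted p = 0.278). Without the shNizp1#1 library of number 3, 5 of the 10 were called lower, and without the shNizp1#2 library of that number 1 was.

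Number 2 against number 1 had 5 markers higher, Ccr2, Adgre1, Cd14, Itgam and Fcgr1, where 13.4% of tested genes were higher. Their log2 fold changes were 1.59, 1.35, 0.84, 1.59 and 1.85, with adjusted p-values between 0.0217 and 0.0340 in edgeR. Fcgr1 averaged 49.1 ± 26.3 CPM in number 2 against 13.2 ± 4.88 CPM in number 1. Lyz2 was at 2209 ± 585 against 859.6 ± 280.2 CPM and was not called (1.14, SE 0.87, adjusted p = 0.380). For 9 of the 10, all but Lyz1, the 4 libraries of number 2 were above the 4 of number 1, as for 12.2% of tested genes. These 5 calls were not stable: 0 were made without the replicate 1 library of the fusion and control shRNA or without that of shNizp1#2. They numbered 1 without the replicate 2 library of the fusion and control shRNA, of shNizp1#2 or without the shNizp1#1 library of replicate 1, 2 without shNizp1#1 replicate 2, 3 without empty-vector replicate 2 and 8 without shNizp1#1 replicate 3.

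**Figure D4:**
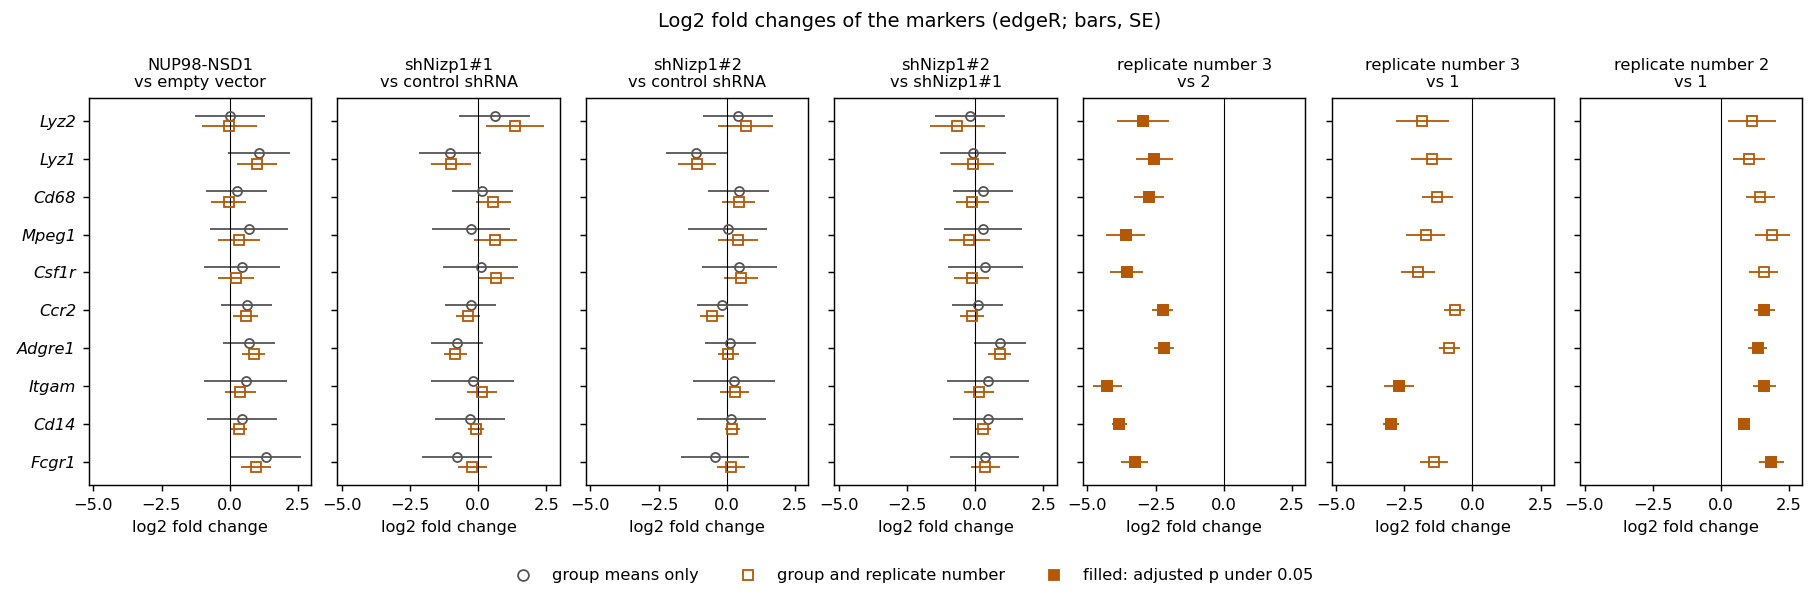
Log2 fold changes of the 10 markers with their SE in the 4 group comparisons, fitted with group means only (circles) and with group and replicate number (squares), and in the 3 comparisons of replicate numbers. Filled symbols, with adjusted p under 0.05, appear only between replicate numbers: 10 for number 3 against 2, 2 for number 3 against 1 and 5 for number 2 against 1.

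In RNA from whole cultures, fewer cells of a type and less RNA per cell cannot be told apart. Genes of other cell types moved with the replicate number as well, and their part in the marker values was not tested. The 20 neutrophil genes, among them the granule protein Camp and the calcium-binding S100a8, summed to 2.82 to 11.7 CPM in number 3, 946 to 1810 CPM in number 2 and 232 to 494 CPM in number 1. Of these 20, all were called lower in number 3 than in number 2, beside 25.4% of all tested genes. Against number 1, all 20 were called lower in number 3 (15.9% of all) and 17 higher in number 2 (13.4% of all). The 15 dendritic cell and MHC class II genes summed to 40.8 to 92.0, 175 to 621 and 92.3 to 143 CPM in numbers 3, 2 and 1. The 24 interferon-stimulated genes summed to 287 to 382, 1199 to 3288 and 367 to 868 CPM. Mast cell genes summed to 47386 to 54556, 58706 to 70360 and 61525 to 76227 CPM. Of these 16, 12 were called lower in number 3 than in number 2 (25.4% of all) and 2 higher, with a median log2 fold change of -0.43. Against number 1, 12 were called lower in number 3 (15.9% of all) and 0 higher, with a median of -0.50. The 8 genes of the primary granule list summed to 1900.2 to 2584 CPM in number 3. Their sums were 1347 to 2399 CPM in number 2 and 1684 to 2053 CPM in number 1. Calr alone held 708 to 1327 CPM of a library's sum, so the sum says little about the other genes. Called lower in number 3 than in number 2 were 5 of the 8, beside 25.4% of all tested genes. These were Mpo, Elane, Prtn3, Ms4a3 and Nkg7 (log2 fold changes -6.89, -7.14, -6.51, -2.73 and -2.91). The 2 higher genes were Ctsg (1.74) and Calr (0.45).

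The wider set of monocyte and macrophage genes held 46 further genes, of which 39 were tested; Marco and Vsig4, receptors of resident macrophages, had no count in any library. Between number 3 and number 2, 34 of the 39 were lower, where 25.4% of all tested genes were, and 2 higher, with a median log2 fold change of -3.26. Ly6c2, a surface marker of inflammatory monocytes, had 1 count in the libraries of number 3 and 1341 in those of number 2 (ratio 6.11e-04, 95% exact binomial interval 1.55e-05 to 0.00341). Chil3, a secreted chitinase-like protein, had 1 against 494 counts (ratio 0.00166, interval 4.19e-05 to 0.00929), and Siglec1, a macrophage adhesion lectin, 3 against 489 (ratio 0.00503, interval 0.00103 to 0.0148). Vcan, the matrix proteoglycan versican of classical monocytes, was at 1.19 ± 1.06 against 153 ± 51.2 CPM (log2 fold change -7.09, adjusted p = 5.89e-06, edgeR). The 2 higher genes, Ifi30 (0.58) and Cd63 (0.40), encode lysosomal proteins that other cells also use. They were singled out after their values were seen.

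Number 3 against number 1 had 21 of these 39 lower, where 15.9% of all tested genes were, and 0 higher. Fn1, fibronectin, was at 2.83 ± 3.16 against 85.9 ± 18.4 CPM (-4.90, adjusted p = 6.22e-04) and Il1b, the inflammatory cytokine, at 0.555 ± 0.377 against 16.5 ± 12.9 CPM (-4.73, adjusted p = 0.00359, edgeR). Chil3 had 1 against 112 counts (ratio 0.00774, 95% interval 1.94e-04 to 0.0440) and Siglec1 3 against 104 (ratio 0.0250, interval 0.00508 to 0.0752). Number 2 against number 1 had 20 higher, where 13.4% of all tested genes were, and 1 lower, Emilin2 (-0.28), named after its value was seen. Ly6c2 was at 66.7 ± 43.5 against 4.94 ± 3.21 CPM (3.601, adjusted p = 0.00114), and the C-type lectin Clec4a1, Ms4a6c and Tgfbi rose by 2.98, 2.90 and 2.71 on the log2 scale.

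In the group comparisons the same 39 genes had 0 calls without the block. With it, 1 of the 39 was called, where 1.63% of all tested genes were, so that this share lay near the background. Chil3 was lower with shNizp1#1, at 5.40 ± 6.86 against 14.6 ± 17.7 CPM (-1.48, SE 0.30, adjusted p = 0.0247, edgeR). The fusion comparison and both comparisons of shNizp1#2 had 0 calls among them. Neutrophil genes moved with the same shRNA: with the block, 5 of 20 (Camp, Ngp, Ltf, S100a8 and S100a9) were lower with shNizp1#1 than with the control shRNA, and their part in the value of Chil3 was not tested. The most abundant of the 39 genes, Cd63 and Emilin2, had 1285 ± 269 and 1109 ± 218 CPM in fusion cells, against 1282 ± 65.8 and 1153 ± 155 CPM in empty-vector cells (adjusted p = 0.967 and 0.812 with the block). With shNizp1#2, Cd63 and Emilin2 were at 1155 ± 216 and 1293 ± 205 CPM, against 1285 ± 269 and 1109 ± 218 CPM with the control shRNA (adjusted p = 0.589 and 0.303) and 1219 ± 138 and 1122 ± 211 CPM with shNizp1#1 (adjusted p = 0.748 and 0.221).

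Genes that work with the markers, as ligands, co-receptors, paralogs or lysosomal proteins, numbered 36, with 30 tested. Il34, a ligand of the CSF1 receptor, had no count. The other ligand, Csf1, was at 27.7 ± 7.65 CPM in number 3 against 164 ± 28.0 CPM in number 2 and 193 ± 64.4 CPM in number 1 (log2 fold change -2.63 and -2.80, adjusted p = 1.15e-04 and 2.19e-04, edgeR). Ccl7, a ligand of CCR2, was at 31.3 ± 19.8 against 166 ± 31.1 CPM in numbers 3 and 1 (-2.50, adjusted p = 0.0107). Tlr2, which like TLR4 works with CD14, was at 1.93 ± 1.32 in number 3 against 30.4 ± 11.5 CPM in number 2 (-3.93, adjusted p = 1.07e-04), and Tlr4 at 20.3 ± 3.91 in number 3 against 38.0 ± 3.84 CPM in number 1 (-0.91, adjusted p = 0.00118). The lysosomal protease Ctsl (-3.25, adjusted p = 0.0137) and the Fc receptor Fcgr4 (-3.04, adjusted p = 7.79e-04) were lower in number 3 than in number 2.

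Between numbers 3 and 2, 22 of the 30 partner genes were lower (25.4% of all tested genes) and 0 higher, with a median of -0.87. Number 3 against number 1 had 16 lower (15.9% of all) and 1 higher, Tyrobp (0.54), an adaptor of activating receptors, named after its value was seen. Number 2 against number 1 had 12 higher (13.4% of all), among them Tlr2 (1.34), the integrin Itgal (1.15) and the transcription factor Cebpb (1.08), and 1 lower, Ccl2 (-0.71), also named after its value was seen. Without the block 0 of the 30 were called in the group comparisons. With it 1 of the 30 was called with shNizp1#1 (1.63% of all) and 1 between the shRNAs (2.37% of all), again near the background. Csf2ra, a subunit of the GM-CSF receptor, was lower with shNizp1#1, at 22.2 ± 9.78 against 40.7 ± 20.1 CPM (-0.83, SE 0.17, adjusted p = 0.0218, edgeR). Tyrobp was higher with shNizp1#2 than with shNizp1#1, at 393 ± 62.2 against 259.5 ± 53.4 CPM (0.61, SE 0.10, adjusted p = 0.00591). The most abundant partners, Csf2rb and Ctsd, had 3737 ± 312 and 1972 ± 419 CPM in fusion cells, against 4213 ± 62.9 and 2434 ± 413 CPM in empty-vector cells (adjusted p = 0.461 and 0.25). With shNizp1#2 they were at 4430 ± 518 and 1885 ± 259 CPM, against the control shRNA's 3737 ± 312 and 1972 ± 419 CPM (adjusted p = 0.301 and 0.874).

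The markers varied together from library to library, Ccr2 least so once the replicate number was taken out. The 12 libraries differed in depth and replicate number. Over them the 45 pairs of markers had correlations of log2(CPM + 1) between 0.61 and 0.99, with a median of 0.85. After subtracting the mean of each replicate number they ran from -0.21 to 0.99, with a median of 0.55. Mpeg1 and Itgam then had median correlations of 0.81 with the other markers, Csf1r 0.79 and Ccr2 -0.12. Outside the set, among 9731 candidates, the genes most like the mean of the 10 markers over the 12 libraries were Rin2 (r = 0.99), the chemokine gene Ccl9 (0.99), Vsir (0.99), Aldh3b1 (0.99) and Pld4 (0.99). Ccl9 was at 88.6, 255 and 26.3 CPM with shNizp1#2 and 74.7, 181 and 34.996 CPM with shNizp1#1 in replicates 1, 2 and 3. It was at 64.2, 255 and 9.81 CPM with the fusion and control shRNA, against 105 and 183 CPM in replicates 1 and 2 and 4.34 CPM in replicate 3 of the empty vector. After subtracting the mean of each replicate number the closest were Ctnnd1 (0.97), Ccl9 (0.95), Sort1 (0.95), Scpep1 (0.95) and Rin2 (0.95). These correlations are descriptions over libraries whose values went together by replicate number.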

How the data were processed

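RNA of 12 cultures was sequenced as single reads of 75 nt from stranded poly(A) libraries, per the labels' protocols. The deposited values are whole-number read counts per gene. The tools were Trimmomatic 0.32, STAR 2.5.3a and featureCounts, and the build mm10, per the submitters' processing notes; for the counting step the version, the strand setting and the annotation were not given in the sources used here. Coordinates are those of the file, and 9 of the 10 markers match GENCODE vM21 exactly.

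Counts were tested with the quasi-likelihood test of edgeR 4.0.16 (R 4.3.3, robust), 1 mean per group over all 12 libraries, TMM scaling, filtering by expression and Benjamini-Hochberg adjustment over 11994 genes; SEs came from the F statistic. Replicate numbers were compared in a model of group and number. Libraries of the same number correlated in 18 of 18 pairs (r 0.20 to 0.87, against a median of -0.18 for other pairs), so blocked values are given. Nothing names separate animals, so p-values reflect only how these libraries vary, which may be technical. DESeq2 1.42.0 and limma 3.58.1 were alternatives. The procedure was tested on simulated data.

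All 10 markers are named; of 2 further lists, up to 4 called genes per comparison reaching 5 CPM in whichever group was higher, or the 2 most abundant; 1 gene that this rule names is not reported here. Likeness used named genes of at least 5 CPM and the top 5. Markers and lists were chosen with earlier results of these data known.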

Additional observations from a re-analysis of the deposited data

How the results depend on the processing

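The 10 calls for replicate number 3 against 2 held in every alternative that kept all libraries, and leaving out 1 library gave 9 to 10. For number 3 against 1 (2 calls), no filter gave 9, DESeq2 6, limma-voom 5 and leaving out 1 library 1 to 5. For number 2 against 1 (5 calls), no filter gave 9, limma-voom 8 and leaving out 1 library 0 to 8. The shares of all genes called in these alternatives are not given, here or in the counts without 1 library above. These counts therefore do not set the markers apart from other genes. The group comparisons had 0 calls among the markers in all alternatives except the replicate block with no filter, which gave 3 for the fusion (1.9% of all genes), 6 for shNizp1#1 (2.16%), 4 for shNizp1#2 (1.56%) and 2 between the shRNAs (2.64%). There, the quasi-likelihood dispersion of Lyz2 was 0.494 over 23682 genes, against 48.4 with the filter, and its SE 0.106, against 1.07. The prior degrees of freedom, the weight of the spread taken from all genes, were infinite for Lyz2 without the filter and 0.272 with it. Its own spread between libraries thus did not enter the SE of 0.106. With the filter it did, and Lyz2 was not called. The replicate block moved the genes called to 33 for the fusion, against 1 without it, to 195 against 0 for shNizp1#1, to 26 against 1 for shNizp1#2 and to 284 against 1 between the shRNAs; it changed no call of a marker.

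Several uncalled log2 fold changes of markers turned sign, and the cause was not tested. In NUP98-NSD1 against the empty vector, Lyz2 (0.014) had -0.0085 with the replicate block, -0.0044 with the replicate block and RLE and -0.020 with the replicate block and no filter. Cd68 (0.26) had -0.11 with limma-voom, -0.040 with the replicate block, -0.038 with the replicate block and RLE, -0.047 with the replicate block and no filter and -0.11 with the replicate block and DESeq2. In shNizp1#1 against the control shRNA, Mpeg1 (-0.26) had 0.76 with limma-voom, 0.63 with the replicate block, 0.63 with the replicate block and RLE, 0.64 with the replicate block and no filter, 0.97 with the replicate block and DESeq2 and 0.20 with the replicate block and limma-voom. Cd14 (-0.31) had 0.0090 with the replicate block and DESeq2. Itgam (-0.20) had 0.28 with limma-voom, 0.15 with the replicate block, 0.15 with the replicate block and RLE, 0.15 with the replicate block and no filter and 0.67 with the replicate block and DESeq2. Fcgr1 (-0.78) had 0.012 with limma-voom and 0.10 with the replicate block and DESeq2. In shNizp1#2 against the control shRNA, Fcgr1 (-0.44) had 0.57 with limma-voom, 0.16 with the replicate block, 0.16 with the replicate block and RLE, 0.15 with the replicate block and no filter and 0.49 with the replicate block and DESeq2. In shNizp1#2 against shNizp1#1, Lyz1 (-0.080) had 0.042 with limma-voom and 0.063 with the replicate block and DESeq2. Csf1r (0.37) had -0.042 with limma-voom, -0.13 with the replicate block, -0.12 with the replicate block and RLE, -0.13 with the replicate block and no filter and -0.33 with the replicate block and DESeq2. Ccr2 (0.10) had -0.24 with limma-voom, -0.14 with the replicate block, -0.13 with the replicate block and RLE, -0.14 with the replicate block and no filter, -0.16 with the replicate block and DESeq2 and -0.18 with the replicate block and limma-voom. Cd68 (0.28) had -0.0022 with limma-voom, -0.11 with the replicate block, -0.10 with the replicate block and RLE, -0.11 with the replicate block and no filter and -0.22 with the replicate block and DESeq2. Mpeg1 (0.29) had -0.039 with limma-voom, -0.22 with the replicate block, -0.21 with the replicate block and RLE, -0.22 with the replicate block and no filter and -0.36 with the replicate block and DESeq2. Itgam (0.47) had -0.15 with the replicate block and DESeq2. 

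Leaving out 1 library or 1 replicate number, with or without the block, gave these ranges of log2 fold changes. Without the block, leaving out 1 library left the replicate numbers unequal between groups, so the ranges also hold differences between numbers. For NUP98-NSD1 against the empty vector they were -0.99 to 1.09 for Lyz2, -1.07 to 1.21 for Csf1r, -0.20 to 1.17 for Ccr2, -0.99 to 0.79 for Cd68, -1.44 to 1.72 for Mpeg1, -0.71 to 1.00 for Cd14, -0.90 to 1.39 for Itgam and -1.22 to 2.499 for Fcgr1. For shNizp1#1 against the control shRNA they were -0.26 to 2.13 for Lyz2, -0.84 to 1.61 for Csf1r, -1.18 to 0.55 for Ccr2, -0.71 to 1.39 for Cd68, -1.22 to 1.89 for Mpeg1, -0.84 to 0.87 for Cd14, -1.41 to 1.29 for Itgam and -1.64 to 1.77 for Fcgr1. For shNizp1#2 against the control shRNA they were -0.74 to 1.42 for Lyz2, -1.12 to 1.99 for Csf1r, -1.60 to 0.65 for Ccr2, -1.01 to 1.68 for Cd68, -0.70 to 0.77 for Adgre1, -1.35 to 2.18 for Mpeg1, -0.98 to 1.34 for Cd14, -1.40 to 1.76 for Itgam and -1.23 to 2.11 for Fcgr1. For shNizp1#2 against shNizp1#1 they were -1.25 to 1.21 for Lyz1, -1.36 to 0.77 for Lyz2, -1.22 to 1.30 for Csf1r, -1.36 to 1.00 for Ccr2, -1.17 to 1.14 for Cd68, -1.11 to 1.25 for Mpeg1, -0.68 to 0.99 for Cd14, -1.22 to 1.68 for Itgam and -0.46 to 1.19 for Fcgr1. 

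Depth limits Lyz1, with 0 to 17 counts a library, and Itgam in replicate 3 of the empty vector, with 1 count. It also limits the ratios of replicate number 3, whose library with the fusion and control shRNA had 9 counts of Itgam and 14 of Fcgr1. The empty-vector library of that number had 6 counts of Fcgr1 and 9 of Csf1r.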
